A study of Mus musculus with 6 samples.

Results

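The Trithorax and H3K27 demethylase genes described here are 10 genes whose products are known to help keep Hox loci active. They are subunits of the COMPASS and menin complexes (Men1, Psip1, Ash2l, Wdr5, Rbbp5, Setd1a), the methyltransferases Dot1l and Ash1l, and the H3K27 demethylases Kdm6a and Kdm6b. They were chosen by symbol, and all 10 were found among the 17523 entries of the deposited count table. RNA was sequenced from cells that were sorted by FACS from bone marrow of C57BL/6 mice, and the series calls the cells hematopoietic stem cells (HSCs). There were 3 libraries from NHD13 mutant mice, a model of myelodysplastic syndrome that expresses the NUP98-HOXD13 fusion of a nuclear pore gene and a homeobox gene, and 3 libraries from wild-type (WT) mice. The sources used here do not give the promoter of the fusion, the age of the mice, the sort markers or whether animals were pooled. Nothing in the labels says that the libraries of a group came from separate animals, so the p-values measure only the spread between these libraries.

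Trithorax proteins keep developmental genes active against silencing by Polycomb proteins. COMPASS-type complexes place methyl groups on lysine 4 of histone H3 (H3K4) at active promoters and enhancers, KDM6 enzymes remove the Polycomb mark from lysine 27 (H3K27), and DOT1L methylates lysine 79 along transcribed genes. In blood progenitors these enzymes maintain expression of the HoxA genes, and menin, LEDGF and DOT1L are known for their part in leukaemias with MLL (Kmt2a) fusions.

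Total counts ran from 12541538 to 14388772 per library, and the 10 genes had between 481 and 3198 counts in each library. The row of the fusion held 185, 179 and 167 counts in NHD13 replicates 1, 2 and 3 and 0 counts in each WT library. Levels are given as CPM, counts scaled to library size, with TMM scaling between libraries. Of 10 stem cell markers 7 were tested, of which Mecom rose and Hlf, Meis1 and Ly6a fell. Over all genes tested, 15.0% were called higher and 15.3% lower. The 10 markers summed to 249 to 271 CPM in NHD13 and 293 to 316 CPM in WT. Among them Procr had 7 counts in the 3 NHD13 libraries together and 14 in the 3 WT libraries, and Fgd5 had 4 counts in each group, while Kit averaged 227 CPM in NHD13 and 254 CPM in WT. The 10 neutrophil markers summed to 36057 to 38851 CPM in NHD13 and 47229 to 61708 CPM in WT. NHD13 replicate 1 stood apart from its group, with a chi-square of counts per degree of freedom of 28.3 and 27.9 against NHD13 replicates 2 and 3 and of 20.4 against WT replicate 1, where NHD13 replicates 2 and 3 differed from each other by 3.46. The libraries also differed in sex-linked RNA. Xist, which is transcribed from the inactive X chromosome, was at 2.55, 1.95 and 683 CPM in NHD13 replicates 1 to 3 and at 463, 1020 and 1078 CPM in WT replicates 1 to 3. The 4 Y-linked genes (Uty, Ddx3y, Kdm5d and Eif2s3y) summed to 252, 280 and 176 CPM in the NHD13 libraries and 192, 110 and 113 CPM in the WT libraries, so NHD13 replicate 3 and every WT library held RNA of both kinds.

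Of the 10 genes, Dot1l and Setd1a rose in NHD13 and none fell at an adjusted p under 0.05 (edgeR quasi-likelihood test, Benjamini-Hochberg over 12013 genes). The other 8 genes had log2 changes between -0.16 (Kdm6a) and 0.24 (Kdm6b) and did not pass the threshold. Over all genes tested, 30.3% were called, 15.0% higher and 15.3% lower, so 2 of 10 higher was near the background. The count of higher genes was 3 without NHD13 replicate 1, where Psip1 passed too, 3 without WT replicate 2, where Kdm6b passed too, and 1 (Dot1l) without NHD13 replicate 2, NHD13 replicate 3 or WT replicate 3. The share of all genes tested called higher and lower was 6.23% and 8.76% without NHD13 replicate 2, 6.86% and 9.05% without NHD13 replicate 3, 6.80% and 7.86% without WT replicate 2 and 6.64% and 8.06% without WT replicate 3. Leaving out NHD13 replicate 1 instead raised the calls, to 24.5% of all genes tested higher and 24.2% lower. The 3 of 10 in that setting was thus again near the background. With every library kept, Dot1l and Setd1a were also the only 2 of the 10 genes with an unadjusted p under 0.05. The median log2 change of the 10 genes was 0.10, against 0.00 over all genes tested, and 9 of 10 were at a positive value, against 50.1% of all genes tested. The count of positive values was 7 with upper-quartile scaling, where Ash1l and Rbbp5 were also below 0, and likewise 7 without WT replicate 2 and with the Y-linked share of the counts as a covariate. In 4 of the 10 genes (Dot1l, Setd1a, Men1 and Wdr5) every NHD13 library lay above every WT library, which held for 23.5% of all genes tested; the opposite order held for none of the 10 and for 22.6% of all genes tested. Markers of other cells differed between the groups as well. All 6 monocyte markers fell (summed level 823 to 1286 CPM in NHD13 and 1865 to 2143 CPM in WT), as did all 6 basophil and mast cell markers (49.0 to 73.8 CPM in NHD13 and 265 to 588 CPM in WT). Of 5 tested erythroid markers 4 rose, and the 6 in the table summed to 1337, 2057 and 1952 CPM in NHD13 replicates 1 to 3 and to 1133, 1132 and 1271 CPM in WT replicates 1 to 3. Other lists moved less evenly. Of 5 tested megakaryocyte markers 1 rose and 1 fell, and 2 of 4 tested B-lymphoid and 1 of 4 tested T and NK cell markers fell. No marker of these lists was at 0 in every library, though the globin gene Hbb-b1 had 2 counts in NHD13 and 4 in WT. Their part in the values of the 10 genes was not tested, and in bulk RNA fewer cells of a type and less RNA per cell cannot be told apart.

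**Figure D1:**
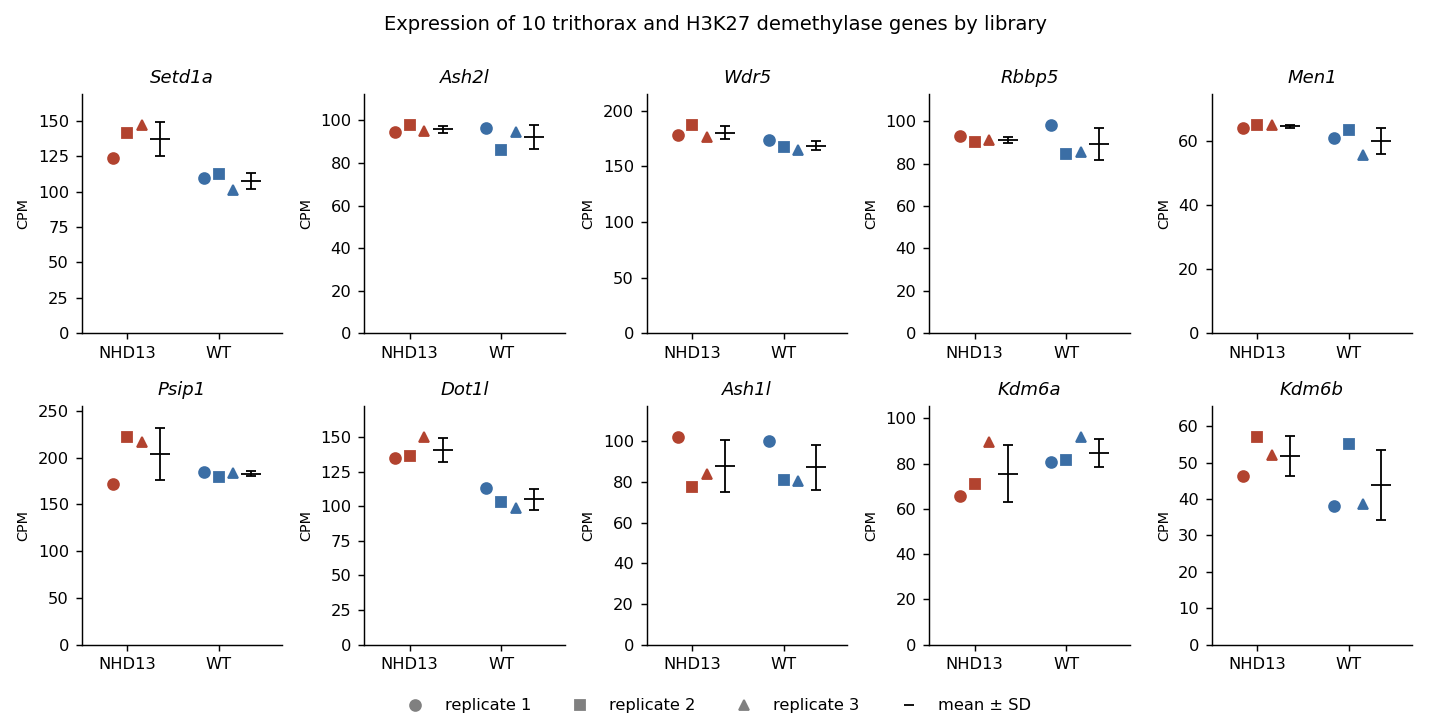
TMM-scaled CPM (vertical axis, from 0) of each of the 10 genes in the 3 NHD13 libraries (red) and the 3 WT libraries (blue), with the marker shape giving the replicate and the black bar the mean ± SD. Dot1l, Setd1a, Men1 and Wdr5 show every NHD13 library above every WT library, an order that held for 23.5% of all genes tested. In Ash1l replicate 1 was the highest library of both groups.

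Per kilobase of exon, averaged over the 3 NHD13 libraries, Wdr5 was the most abundant of the 10 at 50.1 CPM per kilobase, followed by Psip1 (40.1), Rbbp5 (23.2), Setd1a (20.2), Men1 (16.9), Dot1l (16.1), Ash2l (10.7), Kdm6a (9.01), Kdm6b (7.46) and Ash1l (5.92). In WT the levels were 46.9 CPM per kilobase for Wdr5, 35.9 for Psip1, 22.7 for Rbbp5, 15.8 for Setd1a, 15.7 for Men1, 12.04 for Dot1l, 10.3 for Ash2l, 10.1 for Kdm6a, 6.32 for Kdm6b and 5.87 for Ash1l. The order was the same in both groups. Some neighbours in this order differed by less than the sum of their SDs. In NHD13 these were Men1 and Dot1l (16.9 ± 0.115 and 16.1 ± 0.981, SD, n = 3), Kdm6a and Kdm6b (9.01 ± 1.49 and 7.46 ± 0.778), and Kdm6b and Ash1l (5.92 ± 0.866). In WT they were Setd1a and Men1 (15.8 ± 0.831 and 15.7 ± 1.07), Ash2l and Kdm6a (10.3 ± 0.628 and 10.1 ± 0.741), and Kdm6b and Ash1l (6.32 ± 1.39 and 5.87 ± 0.758). These levels rest on the union of annotated exons (GENCODE vM21), which may be longer than the transcripts these cells make.

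Setd1a (mm10 chromosome 7, 127776670 to 127800122, plus strand) encodes the catalytic subunit of the SET1A COMPASS complex, which writes most H3K4 trimethylation at promoters together with its paralogue SETD1B. It was at 124, 141 and 147 CPM in NHD13 replicates 1 to 3, against 109, 112 and 101 CPM in WT replicates 1 to 3. The groups did not overlap, and NHD13 replicate 1 lay nearest to WT. The mean was 137 ± 11.9 CPM in NHD13 and 108 ± 5.64 CPM in WT (SD, n = 3 each), a 1.27-fold rise with a 95% interval of 1.12 to 1.45 (log2 0.35, SE 0.08, edgeR adjusted p = 0.014). The call was lost without NHD13 replicate 2 (adjusted p = 0.0616), NHD13 replicate 3 (0.0638) or WT replicate 3 (0.0678), and with the Y-linked covariate (0.151), at log2 changes of 0.29 to 0.39. Over 16 alternative settings the adjusted p ran from 3.74e-05 to 0.151. Its gene model overlaps Gm49388 on the same strand, so the split of reads between the 2 is uncertain. SETD1B is encoded by Setd1b, which was at 101 ± 6.65 CPM in NHD13 and 90.0 ± 8.77 CPM in WT and did not pass (log2 0.17, 95% interval -0.03 to 0.37, adjusted p = 0.175). Within libraries, there were 1.14, 1.43 and 1.52 counts of Setd1a per count of Setd1b in NHD13 and 1.14, 1.19 and 1.27 in WT. These ratios overlapped between the groups (exact two-sided permutation p = 0.4, where 3 against 3 allows no less than 0.1).

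The core that all COMPASS-type complexes share was measured through Wdr5, Rbbp5 and Ash2l. WDR5 is a WD-repeat scaffold that holds the catalytic subunit, and RBBP5 and ASH2L stimulate its activity. Wdr5 (chromosome 2, 27515157 to 27536535) was at 178, 187 and 176 CPM in NHD13 and 173, 168 and 165 CPM in WT. Every NHD13 library was above every WT library, but by little, and the log2 change of 0.10 (95% interval -0.04 to 0.23) did not pass (adjusted p = 0.245). Rbbp5 (chromosome 1, 132477365 to 132505659) was at 92.8, 90.1 and 90.9 CPM in NHD13 and 97.9, 84.5 and 85.4 CPM in WT. Ash2l (chromosome 8, 25815996 to 25847694) was at 94.7, 97.6 and 95.2 CPM in NHD13 and 96.5, 85.9 and 94.5 CPM in WT. In both genes the groups overlapped, with WT replicate 1 the highest WT library. The 95% interval of the log2 change was -0.14 to 0.20 for Rbbp5 (adjusted p = 0.775) and -0.10 to 0.21 for Ash2l (adjusted p = 0.574).

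Menin, encoded by Men1, is the adaptor that tethers the MLL1 and MLL2 methyltransferases to Hox promoters, and LEDGF, encoded by Psip1, binds menin and methylated lysine 36 of histone H3 (H3K36). Men1 (chromosome 19, 6334979 to 6340891) was at 64.1, 64.9 and 64.9 CPM in NHD13 and 61.1, 63.6 and 55.5 CPM in WT. The groups did not overlap, with WT replicate 2 within 1 CPM of the lowest NHD13 library, and the log2 change of 0.11 (95% interval -0.06 to 0.27) did not pass (adjusted p = 0.292). Its 3 NHD13 values had a coefficient of variation of 0.683%, where the median over all genes tested was 9.41%. Psip1 (chromosome 4, 83455680 to 83486459, minus strand) was at 172, 222 and 217 CPM in NHD13 and 184, 180 and 184 CPM in WT. The 3 WT libraries were close together, NHD13 replicates 2 and 3 were above all of them and NHD13 replicate 1 was below all of them. The log2 change was 0.16 (SE 0.10, 95% interval -0.06 to 0.38, adjusted p = 0.24). Without NHD13 replicate 1 it was 0.27 and passed (adjusted p = 0.00113), as it did without replicate 1 of both groups (0.000575), with 24.5% of all genes tested called higher and 24.2% lower without the one library, and 26.6% higher and 26.7% lower without both. Over the 16 alternatives its adjusted p ran from 0.000575 to 0.638. NHD13 replicate 1 was also the lowest NHD13 library in the sum of erythroid markers, and the part of these in the value of Psip1 was not tested. Its gene model overlaps Snapc3 on the other strand.

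Dot1l (chromosome 10, 80755206 to 80795461, plus strand) encodes the H3K79 methyltransferase and had the largest change of the 10 genes. It was at 135, 136 and 150 CPM in NHD13 replicates 1 to 3, against 113, 103 and 98.7 CPM in WT replicates 1 to 3. The groups did not overlap, with NHD13 replicate 1 and WT replicate 1 nearest to each other's group. The mean was 140 ± 8.54 CPM in NHD13 and 105 ± 7.29 CPM in WT (SD, n = 3 each), a 1.34-fold rise with a 95% interval of 1.19 to 1.51 (log2 0.42, SE 0.08, edgeR adjusted p = 0.00572). It passed under 15 of 16 alternative settings, with log2 changes from 0.36 to 0.51 over all 16. The exception was the Y-linked covariate, where the log2 change was 0.42 and the adjusted p 0.12 (range over the alternatives 8.32e-06 to 0.12). Under this covariate 0.924% of all genes tested were called higher and 1.46% lower, and none of the 10 genes was called. Of the 1799 genes called higher, 902 had a larger log2 change than Dot1l and 1159 a larger one than Setd1a. There were 1.09, 0.965 and 1.02 counts of Dot1l per count of Setd1a in NHD13 libraries and 1.03, 0.917 and 0.974 in WT libraries (exact two-sided permutation p = 0.5, groups overlapping). The gene model of Dot1l overlaps the antisense gene Gm17151, whose reads could not be told apart without strand information. Sf3a2, a splicing factor gene 2737 bases from Dot1l, rose as well (log2 0.48, SE 0.09, adjusted p = 0.00738), while Plekhj1, 638 bases away, was at 49.7 CPM in NHD13 and 42.5 CPM in WT and did not pass (adjusted p = 0.0631). Ap3d1, 12942 bases from Dot1l, was at 128 CPM in NHD13 and 123 CPM in WT and did not pass (adjusted p = 0.519). Of the genes next to Setd1a, Orai3, a calcium channel gene 1520 bases away, fell to 30.3 CPM in NHD13, against 37.2 CPM in WT (log2 -0.30, SE 0.08, adjusted p = 0.0246). Hsd3b7, 482 bases away, was at 30.5 CPM in NHD13 and 35.0 CPM in WT and did not pass (adjusted p = 0.176). Nor did Fbxl19, 7187 bases away, at 38.6 CPM in NHD13 and 33.05 CPM in WT (adjusted p = 0.0876).

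**Figure D2:**
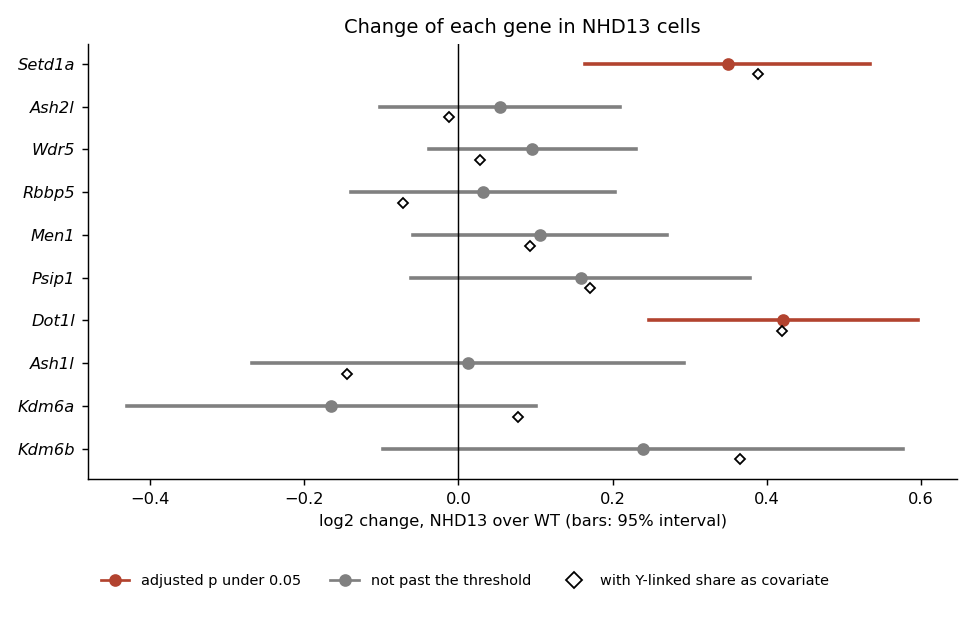
Log2 change of each of the 10 genes in NHD13 over WT (circles) with its 95% interval (bars), in red where the adjusted p was under 0.05, and the same change under the Y-linked covariate (open diamonds). The intervals of Dot1l and Setd1a lie above 0, the other 8 include 0, and the diamonds of Kdm6a, Ash1l, Rbbp5 and Ash2l lie on the other side of 0 from their circles.

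The start regions of the 2 genes that rose are shown because only these 2 of the 10 passed the test. They run from 250 bases before to 50 after the start in RefSeq (GRCm38.p6), Dot1l at chr10:80754953-80755252 and Setd1a at chr7:127777139-127777438, both on the plus strand, and capitals mark matches on either strand to CCGGAAG (ETS core) or GGGCGG (GC box), which did not overlap each other.
Dot1l: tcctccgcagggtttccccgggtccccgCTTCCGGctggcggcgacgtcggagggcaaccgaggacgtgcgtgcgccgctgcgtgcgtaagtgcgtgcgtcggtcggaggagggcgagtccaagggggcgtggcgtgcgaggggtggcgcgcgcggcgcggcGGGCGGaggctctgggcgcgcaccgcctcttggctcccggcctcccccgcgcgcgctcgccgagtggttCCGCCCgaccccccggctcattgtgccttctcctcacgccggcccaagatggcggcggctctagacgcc
Setd1a: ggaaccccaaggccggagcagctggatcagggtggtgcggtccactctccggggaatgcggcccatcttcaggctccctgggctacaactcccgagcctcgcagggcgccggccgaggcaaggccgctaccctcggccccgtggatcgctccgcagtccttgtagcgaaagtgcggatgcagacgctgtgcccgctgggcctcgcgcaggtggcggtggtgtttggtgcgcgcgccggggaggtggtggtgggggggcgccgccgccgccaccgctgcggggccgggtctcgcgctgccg
The window of Dot1l held 49 CpG dinucleotides at 76.3% G and C, and that of Setd1a 35 at 73.7%, where the median over 27025 genes was 7 CpG and 52.7%. The ETS core matched 1 time in Dot1l and 0 times in Setd1a, and it was found in 9.1% of all promoters of this length. The GC box matched 2 times in Dot1l and 0 times in Setd1a (35.9% of all promoters). The CCAAT box CCAAT (37.9%), the E-box CACGTG (7.2%) and the PBX-HOX motif TGATTNAT (3.4%) matched in neither window. The window of Setd1a lies wholly inside its GENCODE gene model, which starts at 127776670, so it does not hold that start. That of Dot1l spans the start of its model at 80755206. Of the 10 genes 6 had an entry in this promoter table, the others being Psip1, Ash1l, Ash2l and Kdm6b. PBX-HOX matched in none of the windows of these 6 genes, and a match or its absence in these letters is a description only.

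Ash1l (chromosome 3, 88950622 to 89079375) encodes a very large methyltransferase of H3K36 that acts with trithorax at Hox genes. It was at 102, 77.5 and 83.8 CPM in NHD13 replicates 1 to 3 and at 100, 80.8 and 80.4 CPM in WT replicates 1 to 3. Replicate 1 was the highest library of both groups, and the groups overlapped almost fully. The log2 change was 0.01 (SE 0.12, 95% interval -0.27 to 0.29, adjusted p = 0.95), and with the replicate number as a block it was 0.01 with an SE of 0.07. Its gene model overlaps 3 other annotated genes on the opposite strand, among them Dap3. Kmt2a, the MLL1 gene listed in the table as Mll1, showed the same order, at 211, 160 and 178 CPM in NHD13 and 201, 173 and 161 CPM in WT.

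KDM6A (UTX) and KDM6B (JMJD3) remove methyl groups from H3K27, and KDM6A is also a subunit of the MLL3 and MLL4 COMPASS complexes. Kdm6a (chromosome X, 18162575 to 18279936, plus strand) lies on the X chromosome and escapes X inactivation, and Uty is its Y-linked paralogue, whose product has much weaker demethylase activity. Kdm6a was at 65.9, 71.1 and 89.6 CPM in NHD13 replicates 1 to 3, against 80.7, 81.5 and 91.9 CPM in WT replicates 1 to 3. NHD13 replicates 1 and 2, the libraries with Xist at 2.55 and 1.95 CPM, were below every other library, and NHD13 replicate 3 lay within the WT range. The mean was 75.5 ± 12.5 CPM in NHD13 and 84.7 ± 6.21 CPM in WT (SD, n = 3 each), a log2 change of -0.16 (SE 0.12, 95% interval -0.43 to 0.10) that did not pass (adjusted p = 0.308). It was -0.32 without NHD13 replicate 3 (adjusted p = 0.0543) and -0.07 without NHD13 replicate 1 (adjusted p = 0.573). Under the Y-linked covariate it was 0.08 (adjusted p = 0.782), and none of the 16 alternatives called it (adjusted p from 0.0543 to 0.782).

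Uty (chromosome Y, 1096861 to 1245759) was at 37.7, 36.1 and 27.9 CPM in NHD13 and 28.3, 12.7 and 15.6 CPM in WT. The groups overlapped, with NHD13 replicate 3 just below WT replicate 1, and the 1.80-fold rise passed (log2 0.85, SE 0.26, adjusted p = 0.0397). The call was lost without NHD13 replicate 1 (adjusted p = 0.204), NHD13 replicate 2 (0.112), WT replicate 2 (0.131) or WT replicate 3 (0.147) and with no filter on low counts (0.139), and Uty is itself part of the Y-linked covariate, where the adjusted p was 0.691 (range over the alternatives 9.78e-06 to 0.691). Kdm6a and Uty together summed to 104, 107 and 118 CPM in NHD13 and 109, 94.2 and 107 CPM in WT, with means of 109 ± 7.28 and 104 ± 8.15 CPM (SD, n = 3 each) and groups that overlapped. The Y-linked genes summed to 252, 280 and 176 CPM in NHD13 replicates 1 to 3 and 192, 110 and 113 CPM in WT replicates 1 to 3. The covariate built on them thus partly follows the group, and it cannot tell sex from genotype. The part of the sex of the cells in the values of Kdm6a was not tested.

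**Figure D3:**
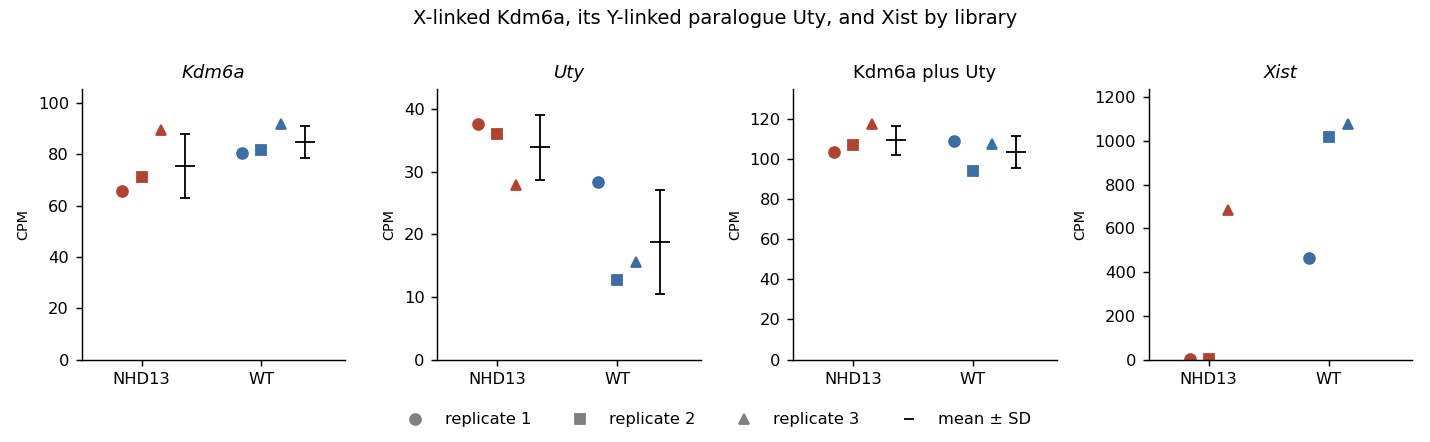
TMM-scaled CPM (vertical axis, from 0) of Kdm6a, Uty, their sum and Xist in the 3 NHD13 libraries (red) and the 3 WT libraries (blue), with the marker shape giving the replicate and, except for Xist, the black bar the mean ± SD. NHD13 replicates 1 and 2 are lowest for Kdm6a and Xist and highest for Uty, and the sum spans 94.2 to 118 CPM.

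Kdm6b (chromosome 11, 69398508 to 69413675, minus strand) is known to be induced by inflammatory signals. It was at 46.4, 57.2 and 52.1 CPM in NHD13 and at 38.0, 55.1 and 38.7 CPM in WT. The groups overlapped through WT replicate 2, which lay above 2 of the 3 NHD13 libraries. The mean was 51.9 ± 5.41 CPM in NHD13 and 44.0 ± 9.65 CPM in WT, and the log2 change of 0.24 (SE 0.15, 95% interval -0.10 to 0.58) did not pass (adjusted p = 0.248). Without WT replicate 2 it was 0.44 and passed (adjusted p = 0.0405), the only one of the 16 alternatives that called it (adjusted p from 0.0405 to 0.585). The 16 immediate early genes, which respond to stress and signals, summed to 224, 219 and 195 CPM in NHD13 and 225, 297 and 259 CPM in WT, and WT replicate 2, the highest WT library for Kdm6b, was the highest library in this sum. Of the 13 tested, 1 rose and 3 fell, against 15.0% of all genes tested called higher and 15.3% lower. WT replicate 2 was also the highest library in the sum of neutrophil markers, at 61708 CPM, and 6 of the 10 markers fell in NHD13. No marker of either list was at 0 in every library, and the part of these genes in the value of Kdm6b was not tested. Its gene model overlaps the antisense gene Kdm6bos. There were 0.704, 0.804 and 0.581 counts of Kdm6b per count of Kdm6a in NHD13 and 0.471, 0.676 and 0.422 in WT, a log2 difference of 0.43 with overlapping groups (exact two-sided permutation p = 0.2, where 0.1 is the least possible).

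**Figure D4:**
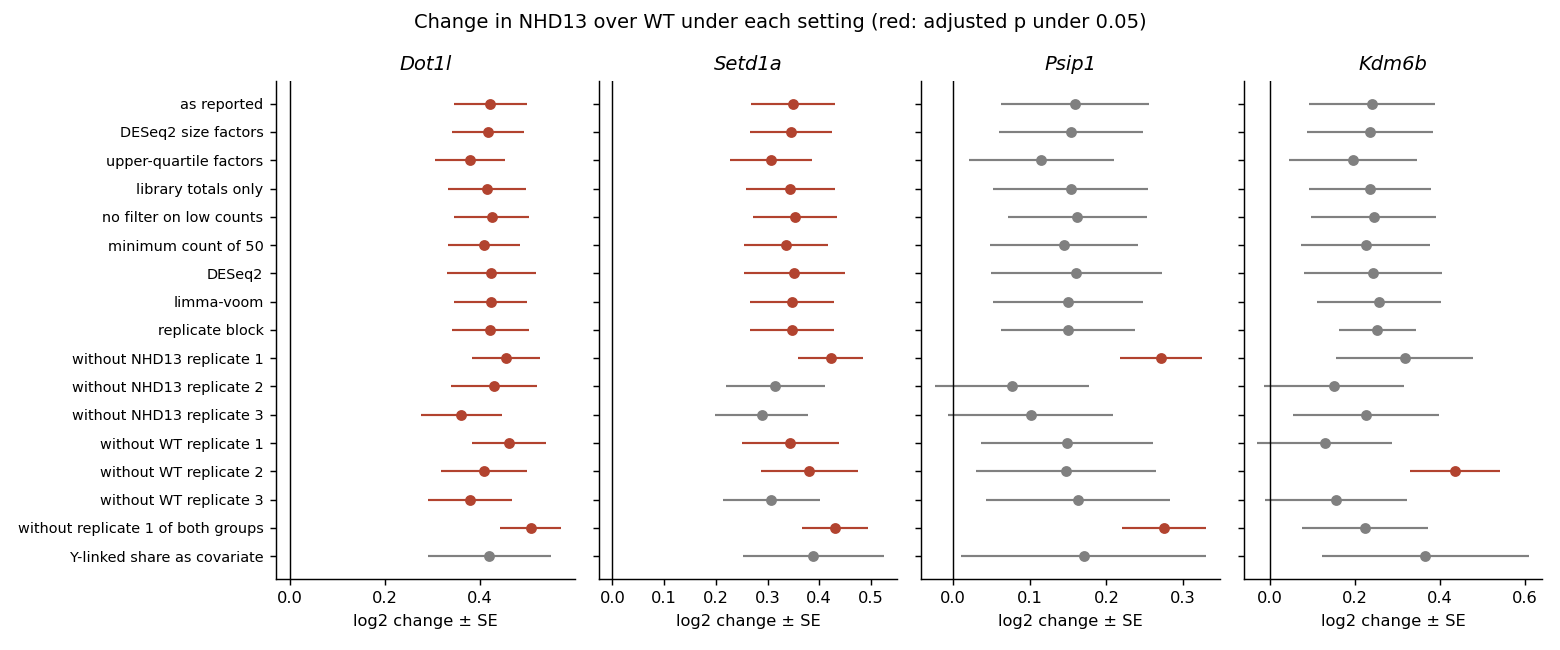
Log2 change in NHD13 over WT (circles) ± SE (bars) of Dot1l, Setd1a, Psip1 and Kdm6b as reported and under each of the 16 alternative settings, in red where the adjusted p was under 0.05. Dot1l is red under 15 and Setd1a under 12 of the alternatives, Psip1 only under the 2 settings without NHD13 replicate 1, and Kdm6b only without WT replicate 2.

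The complexes around the 10 genes were read from 5 lists of H3K4, H3K27, H3K36 and H3K79 methylation genes. Outside the 10 genes these held 45 genes, of which 44 were tested, 9 rose and 2 fell (20.5% and 4.55%, against 15.0% and 15.3% over all genes tested). Among the 9 were the Y-linked genes Uty and Kdm5d, and the libraries differed in Y-linked RNA. The count of higher genes was 3 without NHD13 replicate 2 or WT replicate 3, 4 without WT replicate 2, 5 without NHD13 replicate 3, 4 without a filter on low counts, 19 without replicate 1 of both groups and 0 with the Y-linked covariate. The share of all genes tested called in these settings moved as well: besides the shares given above, it was 10.3% higher and 11.3% lower without a filter and 11.9% higher and 17.7% lower with upper-quartile scaling. The lower genes numbered 5 without NHD13 replicate 1 or replicate 1 of both groups, 4 with upper-quartile scaling, 1 without NHD13 replicate 2, WT replicate 2 or WT replicate 3, and 0 with the covariate. None of the 11 calls below held with that covariate.

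Among the 7 H3K4 methyltransferase genes, Kmt2b rose beside Setd1a and none fell, where 15.0% of all genes tested were called higher and 15.3% lower. Kmt2b, listed under its older symbol Wbp7, encodes MLL2, a menin-bound enzyme of bivalent promoters. It averaged 158 ± 8.60 CPM in NHD13 and 120 ± 8.80 CPM in WT (1.32-fold, adjusted p = 0.00653). Kmt2a was at 183 ± 26.0 CPM in NHD13 and 179 ± 20.3 CPM in WT and did not pass (adjusted p = 0.842), nor did Kmt2c, Kmt2d, Kmt2e and Setd1b, at log2 changes of 0.09 to 0.20. Mll2 in the table was read as Kmt2d, since Wbp7 has a row of its own.

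Of 16 subunits of these complexes 3 rose and none fell, against 15.0% of all genes tested called higher and 15.3% lower. Cxxc1, the CpG-binding subunit of the SET1 complexes, averaged 117 ± 4.95 CPM in NHD13 and 96.0 ± 4.44 CPM in WT (1.22-fold, adjusted p = 0.0144). Hcfc1, the host cell factor found in the SET1, MLL1 and MLL2 complexes, was at 470, 505 and 518 CPM in NHD13 and 396, 389 and 367 CPM in WT (1.30-fold, adjusted p = 0.00468). Ncoa6, a subunit of the MLL3 and MLL4 complexes, rose at 125 ± 3.60 CPM in NHD13 and 108 ± 4.46 CPM in WT (log2 0.21, adjusted p = 0.04). The SET1 subunit Wdr82, at 159 ± 3.08 CPM in NHD13 and 150 ± 4.79 CPM in WT, did not pass (adjusted p = 0.309). The call of Cxxc1 was lost without NHD13 replicate 2 (adjusted p = 0.073), NHD13 replicate 3 (0.0659) or WT replicate 3 (0.0699), and that of Ncoa6 without any single library other than NHD13 replicate 1 (adjusted p from 0.0757 to 0.165). Ncoa6 was also lost with upper-quartile scaling (0.0816), library totals only (0.0506) and no filter (0.0507), and 7 of 16 alternatives kept it.

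Of 13 tested genes of the DOT1L and super elongation complexes, 3 rose and 2 fell, Dot1l included. Over all genes tested, 15.0% were called higher and 15.3% lower. Mllt3, which encodes the DOT1L partner AF9, was at 30.6, 63.4 and 61.0 CPM in NHD13 and 28.6, 29.8 and 34.5 CPM in WT. NHD13 replicate 1 lay within the WT range, and the 1.67-fold rise (adjusted p = 0.0472) was lost without any single library other than NHD13 replicate 1. The elongation factor gene Ell2 was at 43.2, 82.8 and 76.5 CPM in NHD13 and 35.7, 39.9 and 39.0 CPM in WT (1.77-fold, adjusted p = 0.02), and its call was lost in the same 5 cases. The adjusted p without 1 of these libraries ran from 0.0993 to 0.162 for Mllt3 and from 0.0651 to 0.072 for Ell2. Mllt3 was also lost with limma-voom (0.0847), upper-quartile scaling (0.0606), no filter (0.166) and a minimum count of 50 (0.0562), and Ell2 with no filter (0.0783), so that 6 of 16 alternatives kept Mllt3 and 9 kept Ell2. Mllt6, the AF17 gene, fell to 7.97 ± 1.83 CPM in NHD13, against 15.1 ± 1.02 CPM in WT (log2 -0.92, SE 0.17, adjusted p = 0.00555), and Aff3 fell to 21.8 ± 2.68 CPM in NHD13, against 28.4 ± 1.52 CPM in WT (adjusted p = 0.0302). The call of Aff3 was lost without NHD13 replicate 2 (0.0922), WT replicate 2 (0.105) or WT replicate 3 (0.105). Mllt10, the AF10 gene of the same complex, was at 122 ± 1.42 CPM in NHD13 and 114 ± 3.67 CPM in WT and did not pass (adjusted p = 0.235).

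Among 10 H3K27 and H3K4 demethylase genes, the 2 that rose, Uty and Kdm5d (log2 0.81, adjusted p = 0.0336), were both Y-linked, and none fell. The shares over all genes tested were 15.0% higher and 15.3% lower. The call of Kdm5d was lost without NHD13 replicate 1 (adjusted p = 0.175), NHD13 replicate 2 (0.119), WT replicate 2 (0.131) or WT replicate 3 (0.128) and with no filter (0.103). Kdm5c, the X-linked paralogue of Kdm5d, was at 151 ± 15.2 CPM in NHD13 and 144 ± 2.67 CPM in WT (adjusted p = 0.542). In the list of 9 H3K36 genes only Hdgf passed. It encodes a growth factor with a PWWP domain like that of LEDGF, and averaged 829 ± 105 CPM in NHD13 and 608 ± 5.35 CPM in WT (1.36-fold, adjusted p = 0.00834). The H3K36 methyltransferase gene Nsd1 was lower in every NHD13 library, at 222 ± 18.7 CPM in NHD13 and 260 ± 12.3 CPM in WT, and just missed the threshold (adjusted p = 0.0508).

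**Figure D5:**
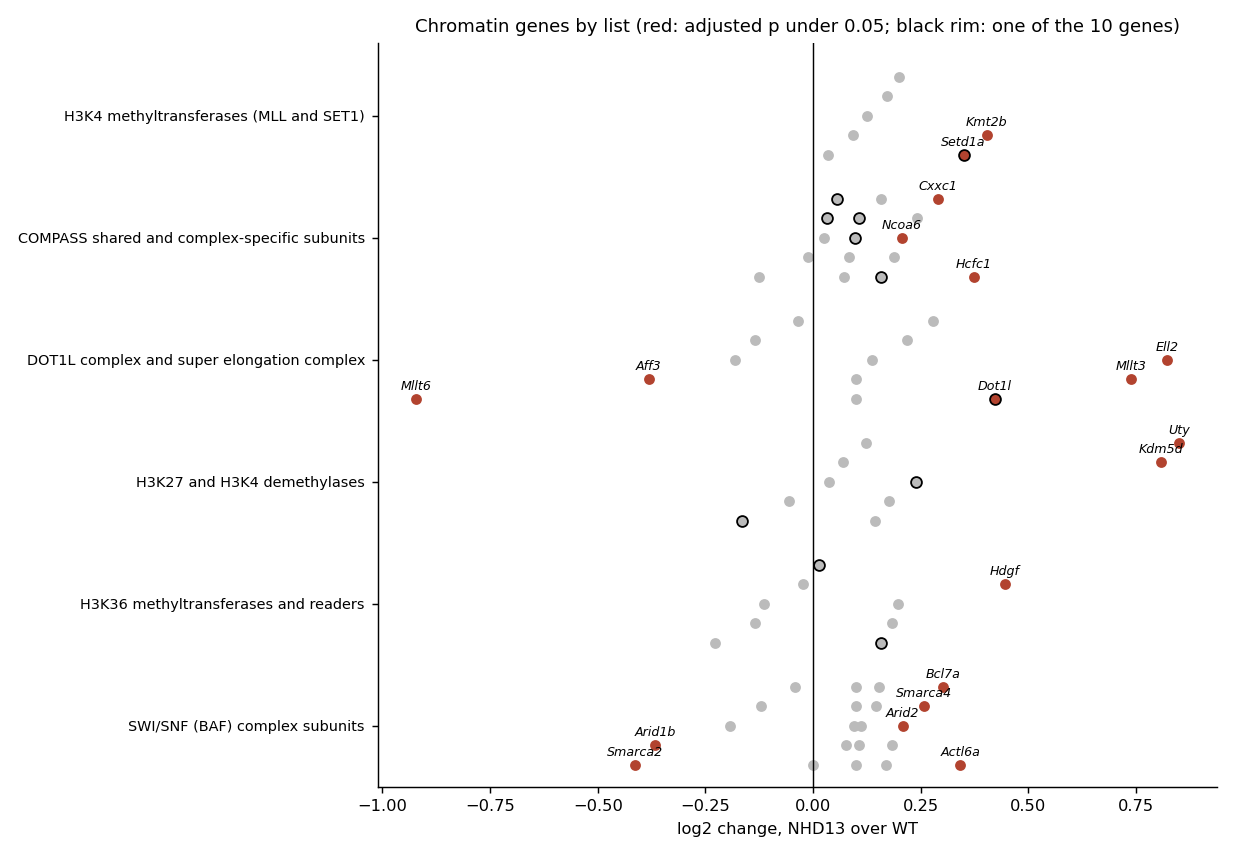
Log2 change in NHD13 over WT (horizontal axis) of each tested gene (points) in 6 lists of chromatin genes (rows, with points spread vertically for legibility), in red with its symbol where the adjusted p was under 0.05 and with a black rim for the 10 genes. Most points lie within 0.25 of 0, and Uty, Ell2, Kdm5d and Mllt3 lie farthest to the right.

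The genes with the pattern most like Dot1l, by the root mean square distance of centred log2 CPM over the 6 libraries, were Jmjd4 (0.03), Trnt1 (0.03) and Mybbp1a (0.04). For Setd1a they were Fam65a, Dvl1 and Epg5, all at 0.02. At the loci these proteins act on, 8 Hox genes of the A, B and C clusters (Hoxa5, Hoxa7, Hoxa9, Hoxa10, Hoxb3, Hoxb4, Hoxc6 and Hoxc8) summed to 116, 121 and 119 CPM in NHD13 and 20.6, 23.3 and 20.4 CPM in WT. Of these 7 rose and Hoxb4 did not pass, where 15.0% of all genes tested were called higher and 15.3% lower. Whether the trithorax and demethylase genes had a part in these Hox levels was not tested.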

How the data were processed

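RNA sequencing counts of 3 NHD13 and 3 WT libraries were analysed. The authors deposited raw counts per gene, whole numbers that were not normalised, and the tools named per the submitters' processing notes were HTSeq 0.5.4p3 and Bowtie2 2.2.1, with mm10 as the build. The sources used here do not give the annotation, strand setting or filters. Columns were matched to samples by the letter and replicate number in their names. Genes were kept by filterByExpr (minimum count 10), which left 12013 of 17523 entries, 719 of which were 0 throughout. Libraries were scaled by TMM and tested with edgeR 4.0.16 (R 4.3.3; estimateDisp, robust glmQLFit, glmQLFTest, group as the term), with Benjamini-Hochberg adjustment and a threshold of 0.05. The SE was taken from the log2 change and the F statistic, and the 95% interval uses the quasi-likelihood degrees of freedom. Counts of 3 allow 0.208 to 0.239 CPM per library, and counting error is the only error these floors cover. Each of the 10 genes passed the filter with at least 481 counts in every library. Positions and exon lengths come from GENCODE vM21 (GRCm38), and sequences from RefSeq (GRCm38.p6). The text names the 10 genes, the members of each chromatin list past the threshold (at most 5 per direction), Uty, Xist and the 3 nearest patterns of the 2 genes with the lowest p; Setd1b, Wdr82, Mllt10, Kdm5c, Nsd1, Kmt2a and the flanking genes were chosen after their values were seen. Outside these choices the text also names the stem cell markers past the threshold, Procr, Fgd5, Kit, Hbb-b1, Kmt2c, Kmt2d, Kmt2e and the Hox genes. The genes and lists were chosen with earlier results of these data known. Alternatives were other scalings, other filters, DESeq2 1.42.0, limma-voom (limma 3.58.1), a replicate block, leaving out libraries and a Y-linked covariate.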

Additional observations from a re-analysis of the deposited data

How the results depend on the processing

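The count of 2 higher members held under DESeq2, limma-voom, the 3 other scalings, both other filters and the replicate block, and ran from 1 to 3 when 1 library was left out; it was 3 without replicate 1 of both groups and 0 with the Y-linked covariate. No setting called a member lower, and DESeq2 gave 2 higher and 0 lower. Over all genes, the higher calls ran from 760 to 3012 and the lower from 957 to 2966 when 1 library was left out, were 3244 and 3245 without replicate 1 of both groups, and were 111 and 175 with the covariate. The groups share replicate numbers, and the correlation of same-number deviations was 0.25, 0.06 and 0.17 for numbers 1 to 3. Whether these numbers pair the libraries was not tested. The replicate block gave 2007 higher and 2233 lower genes, ended no member's call, and made none. Signs changed in 4 members that had not passed: Ash1l was at -0.029 with upper-quartile factors, -0.0008 with a minimum count of 50, -0.144 with the covariate and between -0.106 and 0.108 when 1 library was left out. Rbbp5 was at -0.011 with upper-quartile factors, -0.072 with the covariate and between -0.0054 and 0.087 without 1 library; with the covariate Ash2l was at -0.013 and Kdm6a at 0.078. The cause of these moves was not tested. Fits that left out libraries also had fewer samples. The log2 difference of the Kdm6b to Kdm6a ratio was between 0.29 and 0.63 without 1 library, and 0.43 per kilobase. Depth gave every member 481 to 3198 counts in each library.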

Other observations

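The SWI/SNF complex, which remodels nucleosomes, is the other trithorax machinery of chromatin. Of 21 subunit genes, all tested, 4 rose and 2 fell, where 15.0% of all genes tested were called higher and 15.3% lower, and the median log2 change was 0.10. The ATPase gene Smarca4 (BRG1) averaged 274 ± 5.68 CPM in NHD13 and 229 ± 5.59 CPM in WT (log2 0.26, edgeR adjusted p = 0.0105), and the alternative ATPase gene Smarca2 (BRM) fell to 70.4 ± 8.68 CPM in NHD13, against 93.7 ± 4.62 CPM in WT (log2 -0.41, adjusted p = 0.0133). The DNA-binding subunit gene Arid2 rose (log2 0.21, adjusted p = 0.0329) and Arid1b fell (log2 -0.37, adjusted p = 0.0361). Actl6a, the actin-like subunit of progenitor cells, and Bcl7a rose as well (log2 0.34 and 0.30). Of the 16 alternatives, 12 kept Smarca4 past the threshold, 11 Smarca2, 11 Bcl7a, 10 Arid1b, 10 Actl6a and 9 Arid2, and the Y-linked covariate left none of the 6. Without NHD13 replicate 2, NHD13 replicate 3 or WT replicate 3, none of these 6 was past the threshold. In these settings, in this order, 6.23%, 6.86% and 6.64% of all genes tested were called higher. The shares called lower were 8.76%, 9.05% and 8.06%. With the covariate, 0.924% of all genes tested were called higher and 1.46% lower.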
